A study of Mus musculus with 3 samples.

Results

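The Ms4a genes encode small proteins that pass several times through the cell membrane. The 10 members described here, Ms4a1, Ms4a2, Ms4a3, Ms4a4b, Ms4a4c, Ms4a6b, Ms4a6c, Ms4a6d, Ms4a7 and Ms4a8a, were chosen by symbol, as rows of a droplet RNA-seq matrix of mouse meninges that lists 27998 genes. They are 10 of the 19 genes with an Ms4a symbol in that matrix, and each of the 10 symbols belonged to 1 row. Their unique molecular identifiers (UMIs, each standing for 1 captured transcript) were read in 7057 of the 7131 barcodes that held at least 500 UMIs, after limits on the number of genes and on mitochondrial UMIs.

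Meninges of adult male C57BL/6J mice, 10 to 12 weeks old, were compared between homecage controls (HC) and mice after 14 days of chronic social defeat (CSD), a stress in which a test mouse is repeatedly defeated by an aggressor. Each library pooled 4 mice: there were 2 HC libraries, and 1 CSD library made from the stress-susceptible mice. Live nucleated single cells were sorted, pools went into separate lanes of one microfluidic chip (10x Chromium), and 3′ ends were sequenced. A pool is 1 replicate, so a group difference cannot be told apart from a difference between lanes or pools, and with 1 library against 2 a permutation test could not go below p = 0.333. Libraries held 2599 (HC replicate 1), 1702 (HC replicate 2) and 2756 (CSD replicate 1) kept cells with medians of 2503, 2212 and 2400.5 UMIs, and 17 cell barcodes occurred in a pair of libraries. Barcodes of at most 100 UMIs, taken as free RNA, held 7.87%, 24.1% and 5.48% of all UMIs, the most in HC replicate 2. Within cells, free RNA was estimated at 29.1%, 23.5% and 22.4% of the UMIs, the most in HC replicate 1.

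Members of the family are best known from single lineages. Ms4a1 is CD20, the B cell surface protein targeted by therapeutic antibodies, and Ms4a2 is the beta chain of the high-affinity IgE receptor of mast cells and basophils. Ms4a3 marks granulocyte and monocyte progenitors, Ms4a4b is found on T and NK cells, and Ms4a7 separates macrophages of the brain borders from microglia. Ms4a4c, Ms4a6c, Ms4a6d and Ms4a8a are expressed mainly by myeloid cells, and Ms4a6b by myeloid cells and lymphocytes. Less is known of what the proteins of these 5 genes do.

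The family lies in one block of chromosome 19 in the GRCm38 (mm10) assembly. The GENCODE M21 annotation places the 19 genes between bases 10962293 and 11640851, a span of 679 kb, and all are protein-coding. In order along the chromosome the members are Ms4a8a (11067471 to 11081102), Ms4a1 (11249675 to 11266241), Ms4a7 (11321039 to 11336146), Ms4a4c (11404770 to 11427246), Ms4a4b (11443553 to 11467055), Ms4a6c (11469366 to 11482192), Ms4a6b (11516512 to 11531256), Ms4a6d (11586604 to 11604849), Ms4a2 (11615523 to 11623719) and Ms4a3 (11629496 to 11640851). Ms4a4c, Ms4a4b, Ms4a6c and Ms4a6b are transcribed from the plus strand and the other 6 from the minus strand. Neighbours need not share a lineage: Ms4a4b, highest in NK-like cells, ends 2.31 kb before Ms4a6c, highest in monocyte-like cells, begins. Ms4a2 and Ms4a3 are 5.78 kb apart, and both had their highest mean level in the mast cell or basophil-like class. Some members are close copies, and their transcripts share exact 50-base words in the last 600 bases, where 3′ reads fall. Ms4a4b and Ms4a4c shared 71 such words (2.85% of those of Ms4a4b and 5.27% of those of Ms4a4c), and Ms4a6b and Ms4a6c shared 55 (2.98% and 4.99%). A small part of their reads could therefore fit either copy. Reads in common were not tested for.

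RefSeq (GRCm38.p6) gave promoter windows, 250 bases before and 50 after the start of the transcript, for 8 of the 10 members. The windows of Ms4a6c, Ms4a6b and Ms4a2 are shown because their genes led in different lineages, Ms4a6c and Ms4a6b together in monocytes and border macrophages and Ms4a2 in the basophil-rich class. Capitals mark matches, on either strand, to AGGAAGT, a form of the ETS site that PU.1 binds, or to AGATAA, a form of the GATA site.
Ms4a6c, chr19:11469118-11469417, plus strand: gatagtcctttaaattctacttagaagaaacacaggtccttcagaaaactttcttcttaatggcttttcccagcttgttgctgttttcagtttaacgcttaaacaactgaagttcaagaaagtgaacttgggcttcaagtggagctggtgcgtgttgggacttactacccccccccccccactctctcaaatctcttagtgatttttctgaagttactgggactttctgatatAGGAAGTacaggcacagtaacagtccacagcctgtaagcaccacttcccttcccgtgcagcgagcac
Ms4a6b, chr19:11518309-11518608, plus strand: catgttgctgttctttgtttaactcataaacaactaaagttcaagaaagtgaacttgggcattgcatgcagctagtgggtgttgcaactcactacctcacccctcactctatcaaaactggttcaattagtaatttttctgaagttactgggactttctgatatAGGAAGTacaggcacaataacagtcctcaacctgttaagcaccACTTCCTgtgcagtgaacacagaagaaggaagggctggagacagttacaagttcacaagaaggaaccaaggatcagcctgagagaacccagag
Ms4a2, chr19:11623670-11623969, minus strand: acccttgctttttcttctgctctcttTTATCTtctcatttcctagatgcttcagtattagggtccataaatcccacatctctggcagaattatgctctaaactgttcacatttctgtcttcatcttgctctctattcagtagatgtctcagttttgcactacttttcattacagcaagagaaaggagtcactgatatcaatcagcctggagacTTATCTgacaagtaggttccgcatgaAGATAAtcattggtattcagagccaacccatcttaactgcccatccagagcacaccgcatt
The ETS word stood in the window of Ms4a6c, beginning 17 bases before the start, and in a pair of places in that of Ms4a6b. It was found in 9.35% of all 32851 promoter windows of the table. No other member's window held it, those of Ms4a4c, Ms4a8a and Ms4a7 included. The windows of Ms4a6c and Ms4a6b are alike around AGGAAGT, so their matches there are not separate observations. The GATA word was found in 11.2% of all windows. The window of Ms4a2 held it 3 times, beginning 224, 37 and 11 bases before the start, and no other member's window held it. A C/EBP word, TTGCNNAA, occurred in 10.8% of all windows and among the members in that of Ms4a3, and a RUNX word, TGTGGT, occurred in 16.8% and in that of Ms4a4c. The core of the interferon-stimulated response element (3.44% of windows) and an E box, CAGGTG (20.2%), were in none of the members' windows.

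Cells were grouped into 29 clusters without using any Ms4a gene, and 25 of them were given 1 of 18 names from lists of canonical markers. The 4 others, with 433 cells, are called by number. Levels are given as CPM, the UMIs of a gene in 1 library divided by all UMIs of the class there and scaled by 1e+06. They are compared between classes for 1 gene at a time, and as a description, because the classes were cut from the same cells.

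**Figure D1:**
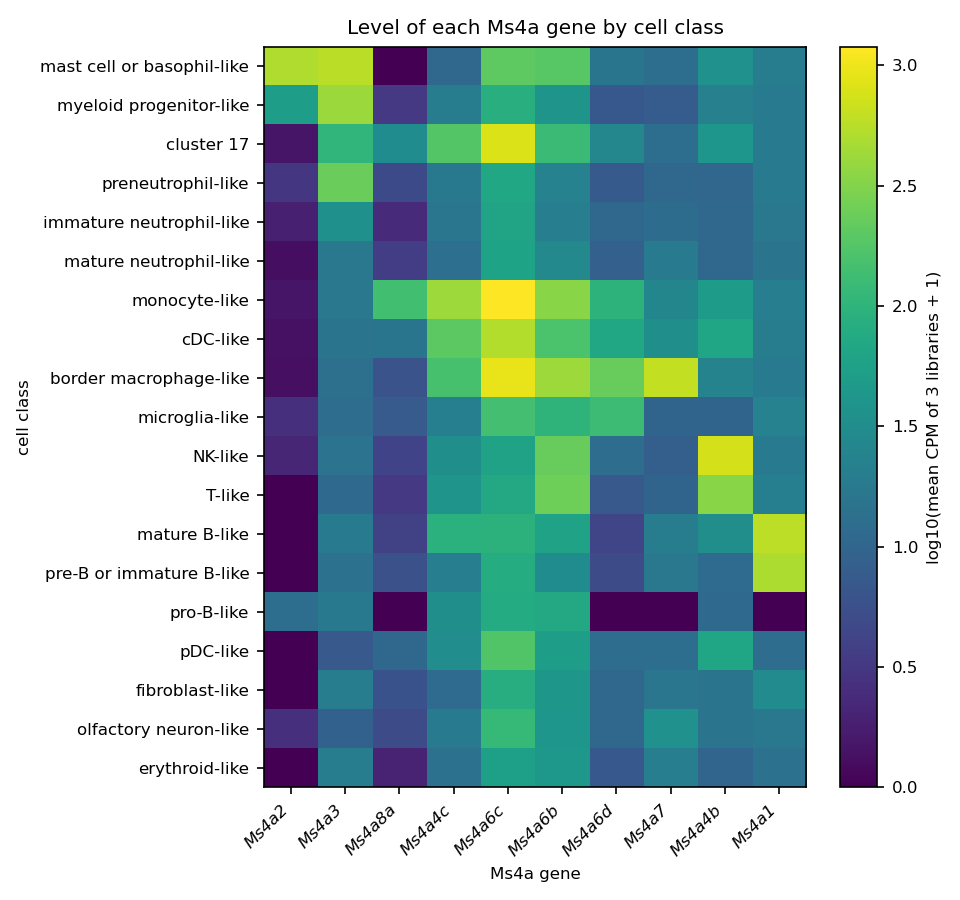
Mean level of each member (columns) in the named cell classes and in cluster 17 (rows), as the log10 of the mean CPM of the 3 libraries plus 1. Ms4a1, Ms4a2, Ms4a4b and Ms4a7 each have 1 or 2 bright rows, while Ms4a6c and Ms4a6b are bright in several myeloid rows.

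Ms4a1 was highest in B cells. Values of the libraries are given with the HC ones first, in the order of their numbers, and the CSD one last. In the mature B-like class its level was 622, 617 and 534 CPM (mean 591 ± 49.4, SD, n = 3), and in the pre-B or immature B-like class it was 621, 591 and 289 CPM (500 ± 184). These classes overlapped, the CSD library alone being low in the second. They held 25.2% and 49.4% of all its UMIs. Unnamed cluster 27 followed at 210 ± 64.7 CPM. The next named class by level, the fibroblast-like one, had 16.6, 57.8 and 14.0 CPM, under the 54.0, 105 and 28.6 CPM of free RNA in each library. How much of its level is background was not tested.

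Within the B lineage Ms4a1 differed more between clusters than between libraries. None of its UMIs was read in the 36 pro-B-like cells, which allows up to 27.3%, 37.5% and 17.6% of such cells with a UMI in the 3 libraries. In the cycling cluster 19 it was read at 44.5, 42.7 and 26.3 CPM. In cluster 11, led by Dnajc7, Arl5c and Fcrla, it stood at 539, 542 and 315 CPM. Cluster 21, whose leading genes included Ms4a1 itself with Tnfrsf13c, Scd1 and Ly6d, reached 2433, 2405 and 1880 CPM (2239 ± 312). Every library of cluster 21 was above every library of the other B-lineage clusters. A UMI was seen in 95.9%, 97.6% and 89.7% of its cells, and in 59.2%, 61.9% and 48.3% after each cell was thinned to 500 UMIs. Mature B-like cells, thinned alike, had one in 28.8%, 22.8% and 21.7%, and mature neutrophil-like cells, which should lack it, in 0.650%, 1.38% and 0.0965%.

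**Figure D2:**
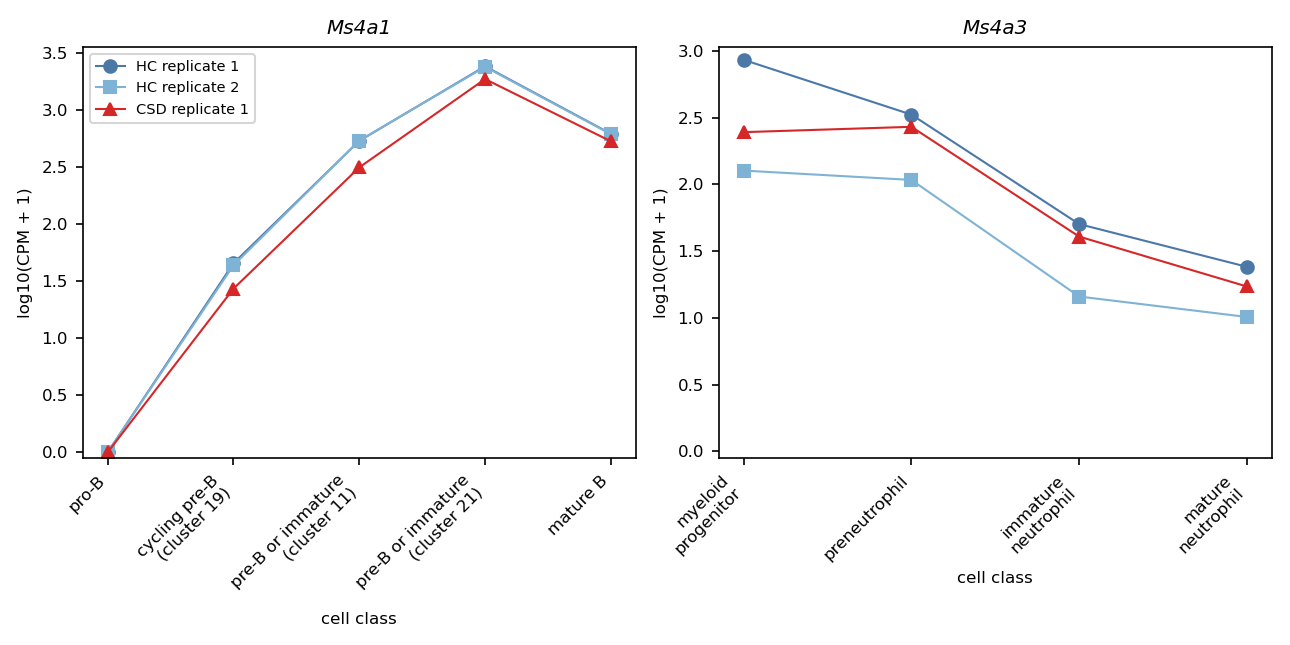
Level of Ms4a1 along the B-lineage clusters (left) and of Ms4a3 along the neutrophil lineage (right), as log10(CPM + 1); each line is 1 library. Ms4a1 goes from 0 in pro-B-like cells to a peak in cluster 21 in all 3 libraries, and Ms4a3 is lower in mature neutrophils than in progenitors in all 3.

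Ms4a2 was high in the mast cell or basophil-like class. This class had 11, 8 and 18 cells. Its basophil markers Mcpt8 and Prss34 were read in 91.9% and 67.6% of the cells, and the mast cell proteases Mcpt4, Tpsb2 and Cma1 in 0%, 0% and 5.41%, while Cpa3, which both cell types express, was read in 78.4%. The class is called basophil-rich from these markers. Ms4a2 stood at 430, 634 and 481 CPM there (515 ± 107), and 72.7%, 75.0% and 83.3% of the cells had a UMI. The class held 56.6% of all Ms4a2 UMIs. Myeloid progenitor-like cells came next with 86.6, 46.4 and 23.2 CPM (52.1 ± 32.1) and 30.3% of the UMIs, and every library of the first class was above every library of the second. Free RNA held 8.99, 5.64 and 8.94 CPM.

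Ms4a3 marked the early end of the granulocyte lineage. In myeloid progenitor-like cells it was read at 857, 126 and 245 CPM, in preneutrophil-like cells at 333, 107 and 269 CPM, in immature neutrophil-like cells at 49.5, 13.5 and 39.7 CPM and in mature neutrophil-like cells at 23.1, 9.16 and 16.2 CPM. The level fell at each of these steps within HC replicate 1 and HC replicate 2, while CSD replicate 1 had its highest level of the 4 in preneutrophil-like cells. HC replicate 2 was the lowest library in all 4 classes, and in all kept cells together it had 21.9 CPM against 96.9 in HC replicate 1 and 66.1 in CSD replicate 1. The basophil-rich class was as high, at 734, 242 and 753 CPM (576 ± 290), and its range overlapped that of the progenitors (410 ± 392). Cluster 17, a cycling cluster led by Prtn3, a granule protease of early myeloid cells, and by Fn1 and F13a1, had 163, 60.2 and 88.1 CPM. Free RNA held 65.5, 24.0 and 84.0 CPM, above the levels in immature and mature neutrophils in each library. Only an estimated 29.1%, 23.5% and 22.4% of the UMIs in cells were free RNA. The comparison therefore does not show how much of those levels is background, and this was not tested. A UMI was read in 81.2%, 45.5% and 72.6% of preneutrophil-like cells and, after thinning to 500 UMIs, in 13%, 4.55% and 13.7%. In mature neutrophil-like cells the thinned shares were 1.14%, 0.691% and 1.06%.

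Ms4a4b was a gene of the lymphocytes other than B cells. NK-like cells had 688, 856 and 725 CPM (756 ± 88.5) and T-like cells 278, 434 and 308 CPM (340 ± 82.7), with every library of the first above every library of the second. NK-like cells held 56.6% of its UMIs. The NK-like cluster held T cell transcripts too. Of the 8 NK markers Nkg7 was read in 97% of its cells and the others in 3.70% (Prf1) to 43.9% (Klrb1c), while Cd3d and Cd3g, chains of the T cell receptor complex, were read in 52.0% and 52.4% and Cd8a in 22.0%. With the cells of highest doublet score left out, clustering gave a smaller NK-like class (65, 52 and 81 cells in place of 166, 105 and 189) and a larger T-like one, and Ms4a4b then stood at 794 ± 81.0 CPM in T-like and 683 ± 112 CPM in NK-like cells. The order of the mean levels of T-like and NK-like cells thus turned with how these cells were divided. Unnamed cluster 27 came next at 86.1 ± 51.2 CPM. Among the named classes those named after dendritic cells followed: cDC-like cells had 65.1 ± 10.6 CPM and pDC-like cells 63.8 ± 31.9 CPM. These did not differ beyond their spread. Of the cDC markers, Cd209a was read in 58.0% of cDC-like cells and the others in 4.44% (Fscn1) to 15.7% (Itgax), so that name is tentative. Free RNA held 29.6, 82.2 and 32.2 CPM. After thinning, 24.1% (95% interval 17.8 to 31.3), 30.5% (21.9 to 40.2) and 25.9% (19.8 to 32.8) of NK-like cells had a UMI.

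Ms4a6c was high in several kinds of myeloid cell. Monocyte-like cells had 1138, 1157 and 1281 CPM (1192 ± 77.5), border macrophage-like cells 828, 660 and 1355 CPM (948 ± 363), cluster 17 720, 813 and 948 CPM (827 ± 115) and cDC-like cells 565, 488 and 515 CPM (522 ± 39.0). Monocytes and border macrophages did not differ beyond their spread, nor did border macrophages and cluster 17, while every library of cluster 17 was above every library of the cDC-like class. Microglia-like cells, the resident macrophages of the brain itself, had 122, 105 and 195 CPM, under the 325, 198 and 250 CPM of free RNA, and mature neutrophil-like cells had 68.5, 54.9 and 57.4 CPM. Free RNA was only an estimated 29.1%, 23.5% and 22.4% of the UMIs in cells. How much of these microglial and neutrophil levels is background was not tested. Nearly all monocyte-like cells had a UMI (95.5%, 93.3% and 99.2%), and 46.4%, 41.1% and 46.9% had one after thinning.

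Ms4a4c and Ms4a8a shared the monocyte as their leading class. Ms4a4c stood at 388, 467 and 402 CPM in monocyte-like cells (419 ± 42.1), above all libraries of the cDC-like class (199 ± 21.4), cluster 17 (177 ± 43.3) and border macrophages (152 ± 66.4), which overlapped each other. It was also read in mature B-like cells at 82.9, 98.5 and 91.9 CPM, against 16.6, 11.9 and 30.2 CPM in pre-B or immature B-like cells. In the neutrophil classes it was low, with 12.1 ± 1.57 CPM in the mature class. Ms4a8a had 99.8, 116 and 206 CPM in monocyte-like cells (140 ± 57.1), which held 59.5% of its UMIs. Cluster 17 followed at 18.3, 18.3 and 54.9 CPM and cDC-like cells at 14.8 ± 3.53 CPM. Border macrophages (3.07, 5.84 and 6.63 CPM) and mature neutrophils (0.926, 3.92 and 2.94 CPM) were under the free RNA level of 6.42, 11.3 and 12.5 CPM. Free RNA was only part of the UMIs in cells, and how much of these levels is background was not tested. Thinned shares of monocyte-like cells with a UMI of Ms4a8a were 1.79%, 5.56% and 13.3%.

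Ms4a6b crossed the border between myeloid and lymphoid cells. Border macrophage-like cells had 385, 263 and 633 CPM (427 ± 188), monocyte-like cells 330, 326 and 361 CPM (339 ± 19.1), T-like cells 189, 281 and 268 CPM (246 ± 49.9) and NK-like cells 240, 227 and 225 CPM (231 ± 7.84). Neither the border macrophages and monocytes nor the T and NK cells differed beyond their spread, but every monocyte library was above every T-like library. Ms4a6b and Ms4a4b were read together in 32.5%, 33.3% and 20.6% of NK-like cells, where their separate shares would give 28.5%, 30.8% and 20.7% if they were independent. In T-like cells the pair was read together in 17.2%, 28.0% and 21.9%, against 10.3%, 21.8% and 11.7% under independence. The part of depth, which differs between cells, was not tested. The basophil-rich class had 187 ± 8.86 CPM and microglia-like cells 99.7 ± 24.3 CPM. Free RNA held 158, 105 and 69.7 CPM.

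Ms4a6d and Ms4a7 led in macrophages, and microglia set them apart. Border macrophage-like cells had 188, 158 and 348 CPM of Ms4a6d (231 ± 102) and microglia-like cells 98.3, 99.9 and 184 CPM (128 ± 49.3). Monocyte-like cells followed at 97 ± 11.8 CPM and cDC-like cells at 69.8 ± 13.6 CPM. The ranges of border macrophages and microglia overlapped, as did those of microglia and monocytes, but within each of the 3 libraries border macrophages were above microglia and microglia above monocytes. The order of microglia and monocytes is thin. In the HC libraries the microglial level lay within the SD of the monocyte mean, and microglia held 96 UMIs of Ms4a6d in all. Ms4a7 was read at 650, 485 and 745 CPM in border macrophages (627 ± 132), which held 72.7% of its UMIs, and at 21.6, 4.76 and 0 CPM in microglia-like cells, the CSD library having none of its UMIs in 93 cells. Its microglial levels were under those of free RNA in each library (107, 32.4 and 42.9 CPM), so Ms4a7 was not detectable there above background, whereas Ms4a6d in microglia was above its free RNA level (51.4, 21.6 and 37.5 CPM) in every library. After thinning, 21.7%, 18.6% and 25.4% of border macrophages and 0.538%, 0% and 0% of microglia-like cells had a UMI of Ms4a7. 0 of 93 cells allows a share of up to 3.23%.

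The border macrophage-like class held a pair of clusters. Cluster 10, rich in MHC class II genes, had 319 cells, 50 of them in HC replicate 2 and 95 in CSD replicate 1, and cluster 14, led by Lyve1, Pf4 and Ccl7, had 149, 9 and 31. Ms4a7 was at 519, 436 and 779 CPM in cluster 10 and at 805, 753 and 612 CPM in cluster 14, so the CSD library was the highest of the first and the lowest of the second. Ms4a6d was higher in cluster 14 in each library (252, 339 and 529 CPM) than in cluster 10 (134, 124 and 302 CPM). Ms4a4c did not order the clusters, with 149, 138 and 207 CPM in cluster 10 and 33.5, 113 and 298 CPM in cluster 14. The 9 cells of HC replicate 2 in cluster 14 held 3 UMIs of Ms4a4c.

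**Figure D3:**
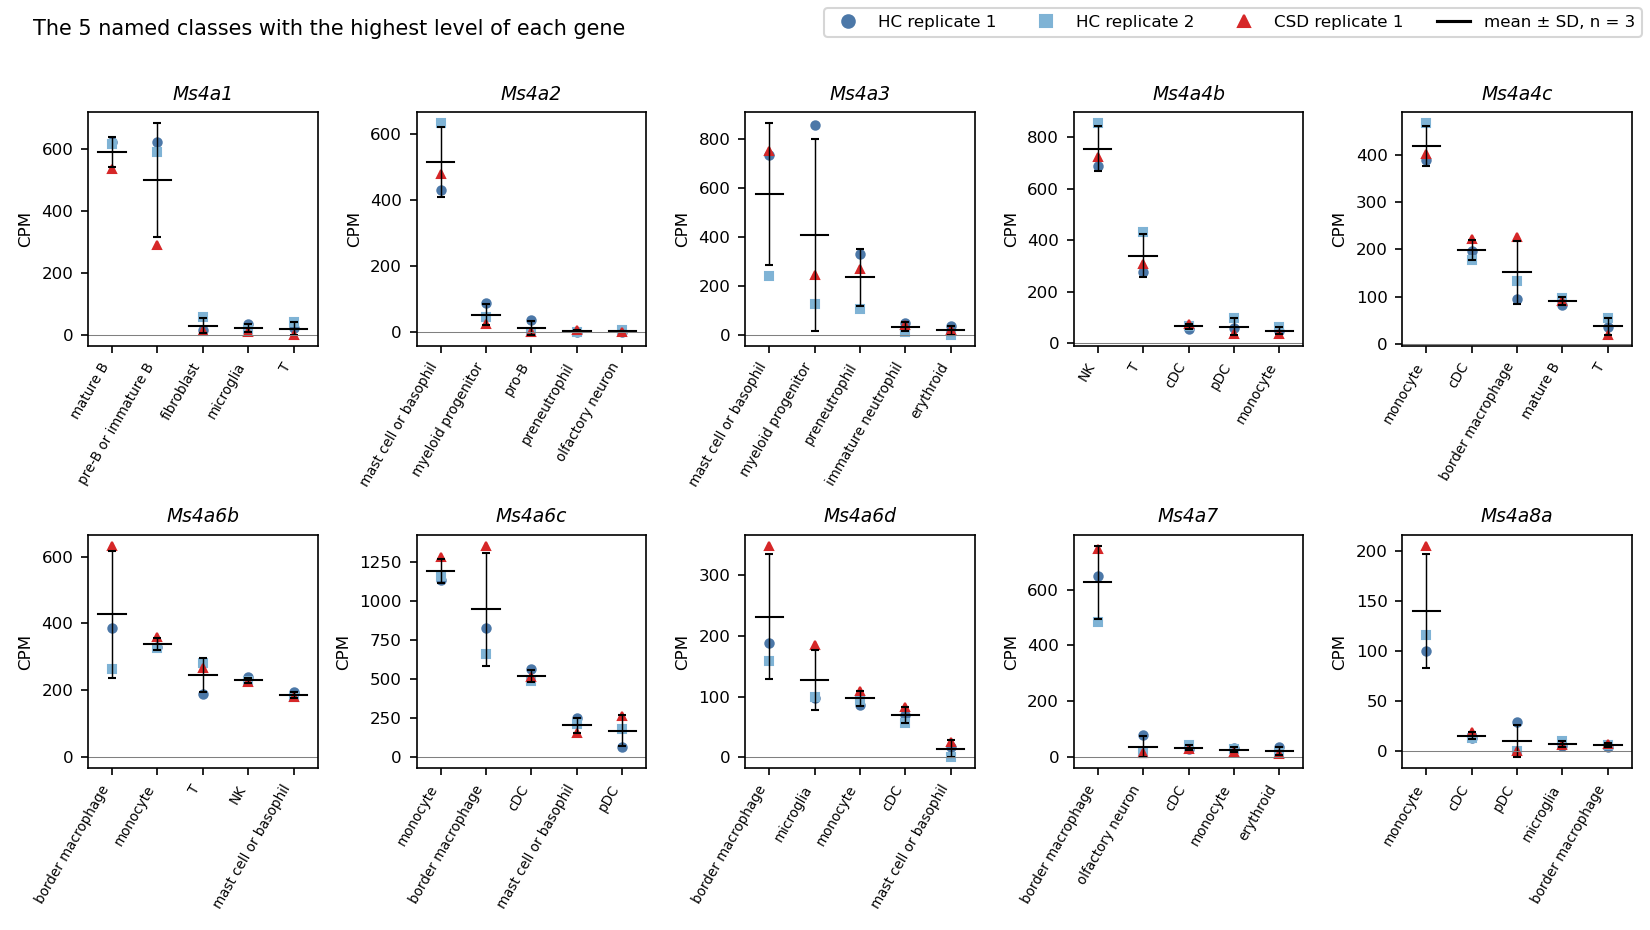
CPM of each member in the 5 named classes where its mean was highest; points are the libraries, the line and bar the mean ± SD of 3. The CSD point is the lowest for Ms4a1 in pre-B or immature B-like cells (289 CPM) and the highest for Ms4a6b, Ms4a6c, Ms4a6d and Ms4a7 in border macrophages.

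The remaining family genes were close to silent. Ms4a4a had 45 UMIs in all kept cells, 26 of them in border macrophage-like cells, Ms4a4d had 19, Ms4a14 had 14, and Ms4a15 and Ms4a18 had 1 each. Ms4a5, Ms4a10, Ms4a12 and Ms4a13 had none. Over the 15 classes and unnamed clusters with at least 20 cells in every library, 45 points in all, the genes most like each member by Pearson's r of log2(CPM + 10) were as follows, as a description only, since points share libraries and depth. Ms4a1 was most like Cd79a (r = 0.959), Cd79b and Siglecg, and Ms4a4b most like Cd3g (0.913), Skap1 and Txk. Ms4a3 was most like Elane (0.789), Fcnb and Prtn3. The basophil-rich and myeloid progenitor-like classes had too few cells to enter, so Ms4a3 was compared without them, and no likeness is given for Ms4a2, which had 56.6% and 30.3% of its UMIs there. Ms4a7 was most like Mrc1 (0.879), Apoe and Ccl7, Ms4a6d most like Cd68 (0.899), Fcgr1 and Clec4a3, and Ms4a6c most like Ccl9 (0.908), F13a1 and Mnda. Ms4a4c was most like Ccdc109b (0.893), Mnda and Pitpna, Ms4a8a most like F10 (0.843), Adgre4 and Ccl9, and Ms4a6b most like Ccr2 (0.807), Phf11b and Pydc4. Between members, r was highest for Ms4a4c with Ms4a6c (0.853).

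CSD was compared with HC in the 13 classes with at least 20 cells in every library, by edgeR's quasi-likelihood test on the summed UMIs. Border macrophages were compared by cluster, since the leading genes of cluster 10 held 1 marker from the mature B list and none of their own list, and cluster 14 had 9 cells in HC replicate 2, so cluster 10 stands for the class and is called by its number. Unnamed cluster 17 was tested apart from the classes. There were 74 tests of a member in a class and 1 passed an adjusted p of 0.05. An unadjusted p under 0.05 was found in 15 of the 74, a larger share than the 6.31% of all gene tests in these classes. The 74 include classes that should lack the member, such as mature neutrophil-like cells for Ms4a1. DESeq2, run on the same sums, passed none. All comparisons share the same 3 libraries, so they are not independent of each other. Over all genes tested, 0% were called in monocyte-like, 0% in mature B-like and 0% in preneutrophil-like cells, 0.0617% in mature neutrophil-like, 1.34% in immature neutrophil-like, 0.12% in cDC-like, 0.0476% in cluster 10, 0.286% in microglia-like, 0.801% in NK-like, 0.583% in T-like, 0.599% in fibroblast-like and 0.92% in olfactory neuron-like cells.

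The member that passed was Ms4a1, which was lower in the CSD library in the summed UMIs of the pre-B or immature B-like class. It had 299 and 298 UMIs in the HC libraries and 134 in the CSD library, from 191, 185 and 197 cells. Its log2 difference was -1.02 ± 0.22 (SE), with an adjusted p of 0.0113 by edgeR (DESeq2: -1.01, adjusted p of 1.00), in a class where 0.395% of 5830 genes were called. The share of cells with a UMI, thinned to 500, was 28.3%, 24.9% and 12.2%. Within the class the direction was the same in each cluster, with values of -0.75 ± 0.27 in cluster 11, -0.68 ± 0.58 in cluster 19 and -0.32 ± 0.22 in cluster 21, none past the test (edgeR adjusted p of 0.984, 0.924 and 0.926). The unadjusted p in cluster 11 was 0.0160, and 0%, 0.025% and 0% of all genes were called in these clusters. Cluster 21, where Ms4a1 was highest, had 49, 42 and 29 of the 191, 185 and 197 cells of the class. It held 85490, 82335 and 41497 of the class's 481153, 504468 and 463773 UMIs of all genes. The part of this change in the mix of clusters in the difference of the class was not tested. In mature B-like cells the difference was -0.19 ± 0.21 (edgeR, adjusted p of 0.965), and whether the classes differ in their response was not tested.

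Other B cell genes stood as follows in the same sums. Of the B cell receptor complex list, 7 of 10 genes were tested in pre-B or immature B-like cells, none passed in either direction or had an unadjusted p under 0.05, and their median log2 difference was -0.15 (all genes: -0.02). Cd79a, a signalling chain of the receptor, was at 1877, 1962 and 1626 CPM, and its partner chain Cd79b at 2095, 2313 and 2079 CPM. The mature B marker list summed to 1268, 1219 and 737 CPM in this class, all 7 markers in the files being lower in the CSD library than in either HC library, and none was at 0 in every library. Of that sum, 817, 726 and 418 CPM were H2-Aa, an MHC class II gene that macrophages and dendritic cells also express. The pro-B list summed to 3315, 3215 and 3433 CPM. Of the macrophage partners, 2 of 5 tested passed, both lower in the CSD library: Trem2 (133, 87.2 and 19.4 CPM) and C1qb (459, 287 and 140 CPM). The microglia list summed to 214, 252 and 81.9 CPM, with 5 of 6 markers lower in the CSD library than in both HC libraries. The border macrophage list summed to 193, 45.6 and 47.4 CPM, with 3 of 8 lower and 1 higher, and the mature neutrophil list to 24329, 22160 and 25512 CPM, with 1 of 9 lower and 6 higher. Their part in the Ms4a1 result was not tested.

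In classes that should lack it, Ms4a1 was lower in the CSD library as well, as in its free RNA. Mature neutrophil-like cells had 13, 26.2 and 3.43 CPM (log2 difference -2.26 ± 0.60, edgeR adjusted p of 0.319), and monocyte-like cells 19.2, 36.2 and 3.05 CPM (-3.13 ± 0.82, adjusted p of 0.754). These levels were under those of free RNA in each library, and how much of them is background was not tested. Subtracting an estimated free RNA share of 29.1%, 23.5% and 22.4% of the UMIs left 291, 286 and 131 UMIs of Ms4a1 in pre-B or immature B-like cells and a difference of -1.09 ± 0.26, which no longer passed (edgeR, adjusted p of 0.246).

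Ms4a8a was higher in the CSD library in the summed UMIs of cluster 17. It had 12 and 7 UMIs in the HC libraries and 53 in the CSD library, from 54, 34 and 81 cells. The log2 difference was 1.59 ± 0.43 (edgeR, adjusted p of 0.0338; DESeq2, adjusted p of 1.00), and 0.808% of the 6432 genes tested there were called. In monocyte-like cells it had 52, 51 and 135 UMIs and a difference of 0.97 ± 0.20, with the CSD library above both HC libraries, but this did not pass (edgeR, unadjusted p of 0.00397 and adjusted p of 0.725). In cluster 17 the monocyte marker list summed to 5516, 5571 and 6511 CPM, the myeloid progenitor list to 4694, 2503 and 2931 CPM and the mature neutrophil list to 25866, 23043 and 30543 CPM. None of their markers was at 0 in every library, and their part in the result was not tested. Ms4a6d in cluster 17 had 15.2, 15.7 and 46.6 CPM, with a difference of 1.60 ± 0.48 that did not pass (edgeR, adjusted p of 0.0975).

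**Figure D4:**
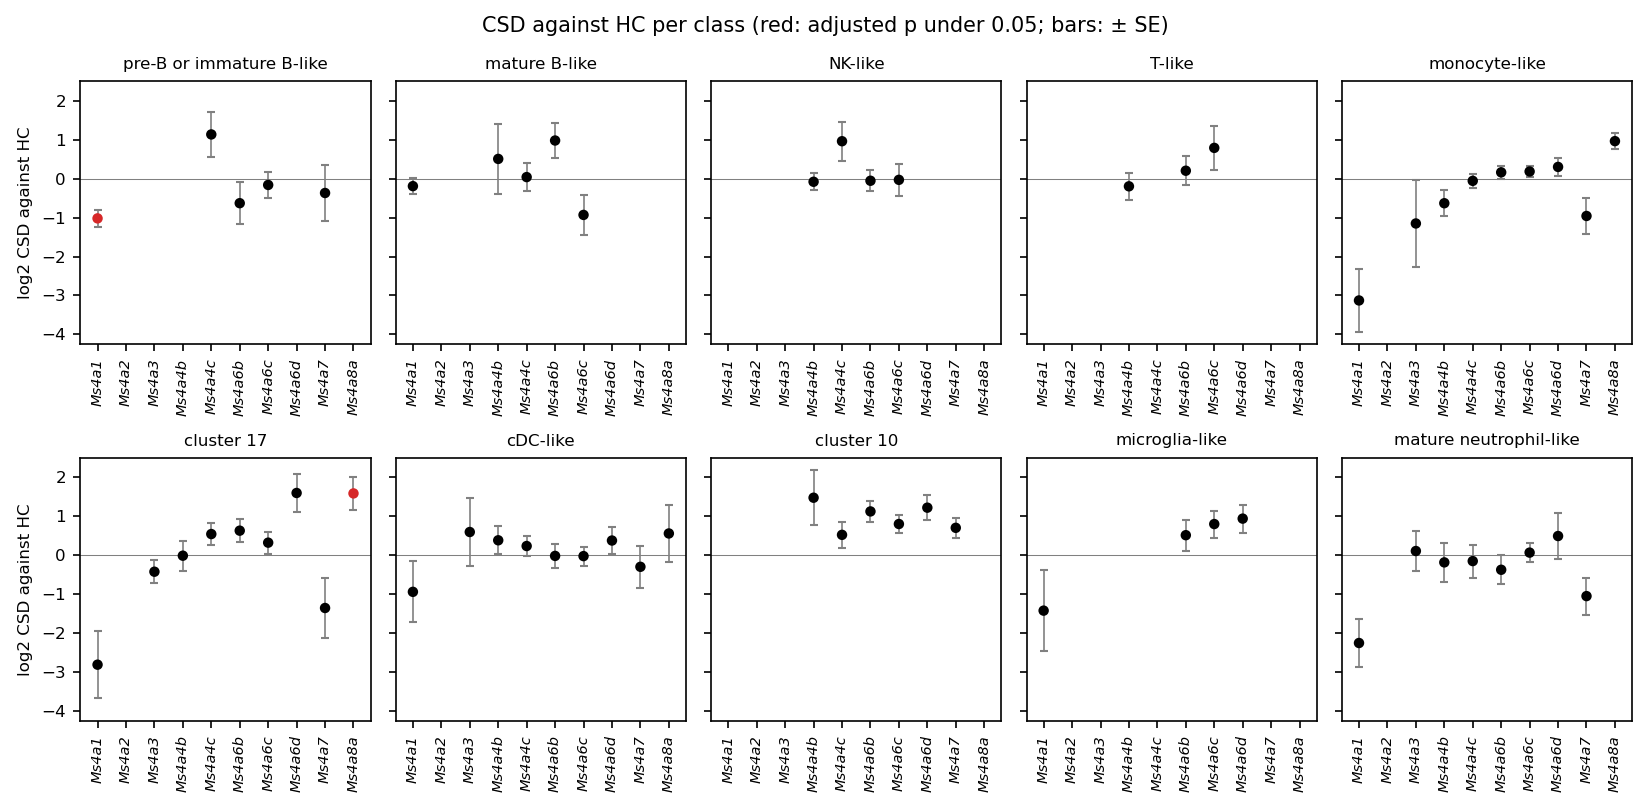
Fitted log2 difference between CSD and HC (points, ± SE from edgeR) of the members with at least 20 UMIs in each of 10 units; red marks an adjusted p under 0.05. The red points are Ms4a1 in pre-B or immature B-like cells (-1.02) and Ms4a8a in cluster 17 (1.59).

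In cluster 10, 6 members were tested and none of their differences passed. Ms4a4b (11.3, 27.7 and 41.4 CPM) and Ms4a4c (149, 138 and 207 CPM) were the others beside the 4 that follow. Ms4a6b was at 309, 228 and 601 CPM (log2 difference 1.13 ± 0.28, edgeR adjusted p of 0.190), Ms4a6d at 134, 124 and 302 CPM (1.22 ± 0.32, 0.206), Ms4a6c at 762, 698 and 1263 CPM (0.80 ± 0.24, 0.309) and Ms4a7 at 519, 436 and 779 CPM (0.70 ± 0.26, 0.799). Their unadjusted p-values were 0.000297, 0.000481, 0.00177 and 0.0101. In cluster 14 the CSD library was above both HC libraries for Ms4a6b, Ms4a6c and Ms4a6d and below both for Ms4a7. The share of all genes with the CSD library above both was not counted in either cluster. Microglia-like cells had differences of 0.80 ± 0.35 for Ms4a6c and 0.94 ± 0.36 for Ms4a6d that did not pass either (edgeR, adjusted p of 0.683 and 0.506). Complement genes C1qa, C1qb and C1qc, receptor Trem2 and its adapter Tyrobp, listed as macrophage partners, had a median of 0.34 in cluster 10, with none of 5 past the test and 2 at an unadjusted p under 0.05. Markers in cluster 10 summed over the mature B list, which holds the MHC class II gene H2-Aa, to 11361, 11494 and 11578 CPM, over the border macrophage list to 1854, 1100 and 1562 CPM, over the monocyte list to 1056, 1065 and 1131 CPM and over the microglia list to 1402, 2026 and 1363 CPM, Sall1 being at 0. Tmem176a and Tmem176b, relatives of the family, had differences of 0.01 ± 0.25 and -0.05 ± 0.24 there.

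Members that led in NK-like and monocyte-like cells did not pass there. Ms4a4b in NK-like cells had a log2 difference of -0.08 ± 0.21, Ms4a6b in the same cells -0.05 ± 0.26, Ms4a6c in monocyte-like cells 0.19 ± 0.15 and Ms4a4c -0.05 ± 0.18, all with an edgeR adjusted p between 0.813 and 0.998. Ms4a3 in preneutrophil-like cells had 0.24 ± 0.81, its HC libraries being 333 and 107 CPM. The difference between CSD and HC in monocyte-like cells was also set against that in mature neutrophil-like cells. None of 8 members tested passed, or had an unadjusted p under 0.05, in a fit that called 1.25% of 5124 genes. The nearest to the threshold was Ms4a6b, with a difference of 0.59 ± 0.34 (edgeR, adjusted p of 0.582). DESeq2 passed none of the members either. On simulated counts, 2-fold and 4-fold changes were given to 100 genes each, drawn at random from those tested. The edgeR fit of pre-B or immature B-like sums recovered 32% and 66%, and that of cluster 10 recovered 6% and 57%. A 2-fold change in a gene drawn this way could easily be missed. Recovery was not split by count, so it was not measured for genes with as many UMIs as the higher members.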

How the data were processed

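Meningeal cells were profiled by 10x Chromium 3′ RNA-seq in 3 libraries, 2 HC and 1 CSD. The authors deposited UMI counts per gene and barcode, made with Cell Ranger 2 on mm10 according to the submitters' processing notes, without normalisation. The number ending each barcode was taken as the library number. Barcodes with at least 500 UMIs and at most 8.3% mitochondrial UMIs were kept, within limits on genes detected. Cells were corrected between libraries, clustered without Ms4a genes (50 components, Leiden resolution 2; scanpy 1.11.5, leidenalg 0.10.2) and named from canonical markers. Doublets were scored but not removed: the automatic threshold marked 1.92%, 0.940% and 0.109% of the cells. The naming rule and the resolution were set after seeing the data, and the members and gene lists were chosen with earlier results of these data known.

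CPM came from counts summed per class and library. Genes with at least 20 UMIs over the libraries were tested by edgeR 4.0.16 (quasi-likelihood, TMM, two-sided) with Benjamini-Hochberg adjustment over all genes of a class and a threshold of 0.05. The libraries leave 1 residual degree of freedom, and DESeq2 1.42.0 was an alternative. Named genes were all 10 members, the genes of the fixed lists that passed, and the 3 genes most like each member except Ms4a2. Shares carry exact 95% binomial (Clopper-Pearson) intervals, and a count of 0 allows 3 cells. Intervals and floors cover counting error only. The test was tried on simulated counts. Alternatives changed the filters, clustering, free RNA, depth and test.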

Additional observations from a re-analysis of the deposited data

How the results depend on the processing

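The member test between CSD and HC passed 1 of 74 comparisons in the classes, where 0.398% of all gene tests were called. It passed 0 of 74 with DESeq2 (0.0342% of all gene tests), 0 of 33 with genes in over 15% of the cells only (0.359%), 0 of 30 after subtracting free RNA (0.31%) and 0 of 29 after thinning to 500 UMIs (0.17%). It passed 2 of 74 without normalization factors (0.642%), 2 of 75 without correction between libraries (0.496%) and 4 of 125 without a filter on low counts (0.329%), and 1 under each of the other 5 settings, not always the same member. Ms4a1 in pre-B or immature B-like cells passed in 4 of 12 alternatives, with log2 differences from -1.09 to -0.97 and adjusted p from 0.000614 to 1.00 (edgeR or DESeq2), and Ms4a8a in cluster 17 in 2 of 5 (1.58 to 1.67, adjusted p from 0.0292 to 1.00). Not all of these alternatives were separate checks of Ms4a1. At a Leiden resolution of 1, where it passed, the pre-B or immature B-like class again had 191, 185 and 197 cells and 23 of 5830 genes called, which repeats the main test. With Ms4a genes kept in clustering the class had 191, 184 and 198 cells, nearly the same. Ms4a8a in monocyte-like cells passed in 3 of 12 and Ms4a1 in mature neutrophil-like cells in 4 of 9. Ms4a6d passed in cluster 10 in 1 of 12 and in cluster 17 in 1 of 5. Leaving out an HC library gave no test, since no residual degree of freedom remained. The difference for Ms4a1 in pre-B or immature B-like cells then lay between -1.09 and -0.94. The level in the leading class stayed within 1 SD for 4 of 10 members after subtracting free RNA. DESeq2 called 1 gene, and edgeR 64, in the comparison of monocyte-like with mature neutrophil-like changes. Where values moved, the cause was not tested. No difference that passed changed sign under these alternatives, while Ms4a4c in monocyte-like cells (-0.13 to 0.19) and Ms4a4b in NK-like cells (-0.16 to 0.06) took both signs. The leading class was kept by 9 of 10 members with a minimum of 1000 UMIs, a mitochondrial limit of 5% or doublets left out, where Ms4a4b led in T-like cells, and by 10 otherwise. No paired analysis was possible because the groups share 1 replicate number only. The number of cells limits the rare classes: the basophil-rich, pro-B-like, pDC-like, myeloid progenitor-like and erythroid-like classes had under 20 cells in at least 1 library and no test.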
